A study of Mus musculus with 9 samples.

Results

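The 10 genes described here encode the NF-κB subunits (Nfkb1, Nfkb2, Rela, Relb and Rel) and 5 of their inhibitors (Nfkbia, Nfkbib, Nfkbid, Nfkbie and Tnfaip3). They were taken by symbol from a table of 48709 mouse genes, and all 10 were found. The series holds 9 RNA-seq libraries of mouse CD8+ T cells, which kill infected or tumour cells on recognising an antigen. The 3 libraries labelled CTRL came from cells without OVA peptide, the 3 labelled OVA from cells with the peptide, and the 3 labelled OVA/Citra from cells with both the peptide and citraconate. The peptide is a piece of egg-white ovalbumin that serves as a test antigen. Citraconate is a dicarboxylate and an isomer of itaconate. The sources used here give no strain, age, genotype, dose or time, and no group had citraconate without the peptide. The labels call the cells of 8 libraries "PAS-T cells", a term they leave undefined. The comparisons ask how the peptide altered these transcripts and how adding citraconate to it altered them again.

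NF-κB is a family of dimeric transcription factors that a T cell switches on when its antigen receptor, costimulatory receptors or cytokine receptors are engaged. In the canonical arm, dimers of RELA or c-REL (from Rel) with the product of Nfkb1 are held outside the nucleus by IκB proteins until a kinase complex marks those inhibitors for destruction. In the non-canonical arm, the precursor made from Nfkb2 is trimmed and enters the nucleus with RELB. Many genes of the family are themselves NF-κB targets, and Nfkbia and Tnfaip3 are textbook cases of inhibitors induced by the factor they restrain. In CD8+ T cells, c-REL and RELA act in activation, survival and cytokine production.

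Because NF-κB binds its own family's promoters, the sequence just before the start of each gene was read from RefSeq windows on the GRCm38.p6 build, which is older than the GRCm39 build named in the submitters' processing notes. Windows of 300 bases (250 before to 50 after a start) were matched by symbol for 8 members, and Nfkb1 and Relb were not matched. The κB consensus, a 10-base binding motif of NF-κB, was searched on both strands. A match was found for 6 of the 8 members, against 1388 of 27025 genes with a window (5.14%). By window the counts were 8 of 13 for the members and 4.51% of 32851 for all genes. The 6 members with a match were Nfkb2, Rel, Nfkbia, Nfkbid, Nfkbie and Tnfaip3. Rela and Nfkbib had none, which says only that these letters are not in these windows. A match is a description of sequence and was not measured as binding here.

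Stretches before the start are shown for 4 members with a match whose citraconate libraries lay above all others, with matched bases in capitals, and for Rela as a member without a match. Rela shares that pattern of levels, as does Nfkb2, which is given below by its matches alone. Nfkbid, with a match, and Nfkbib, without, had citraconate libraries that overlapped the others and are not shown. None of the stretches is the whole window. Counted from the start, those of Nfkbia and Nfkbie run from -250 to -1 and that of Rel from -250 to -2. The Tnfaip3 stretch runs from -130 to -1 and the Rela stretch from -250 to -80. Each reads 5′ to 3′ on the gene's own strand.
Nfkbia (chr12:55492648-55492897, minus strand): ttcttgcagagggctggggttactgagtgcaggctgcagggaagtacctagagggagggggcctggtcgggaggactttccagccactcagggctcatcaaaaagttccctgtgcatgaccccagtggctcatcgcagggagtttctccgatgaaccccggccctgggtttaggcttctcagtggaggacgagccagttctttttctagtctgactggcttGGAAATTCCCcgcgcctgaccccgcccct
Rel (chr11:23770971-23771219, minus strand): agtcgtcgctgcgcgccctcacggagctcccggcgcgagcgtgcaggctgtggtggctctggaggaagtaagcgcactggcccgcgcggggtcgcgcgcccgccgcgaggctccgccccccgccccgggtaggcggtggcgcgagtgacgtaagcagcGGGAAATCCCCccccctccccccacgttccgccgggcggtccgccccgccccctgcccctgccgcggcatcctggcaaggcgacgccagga
Tnfaip3 (chr10:19015411-19015540, minus strand): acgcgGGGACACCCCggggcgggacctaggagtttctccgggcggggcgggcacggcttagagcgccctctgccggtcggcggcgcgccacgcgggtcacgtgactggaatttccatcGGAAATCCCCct
Nfkbie (chr17:45555450-45555699, plus strand): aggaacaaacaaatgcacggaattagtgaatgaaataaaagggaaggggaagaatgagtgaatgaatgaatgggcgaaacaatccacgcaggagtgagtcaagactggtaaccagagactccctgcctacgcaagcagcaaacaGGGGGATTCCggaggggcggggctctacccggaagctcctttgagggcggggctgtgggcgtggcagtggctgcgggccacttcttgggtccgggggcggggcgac
Rela (chr19:5637291-5637461, plus strand): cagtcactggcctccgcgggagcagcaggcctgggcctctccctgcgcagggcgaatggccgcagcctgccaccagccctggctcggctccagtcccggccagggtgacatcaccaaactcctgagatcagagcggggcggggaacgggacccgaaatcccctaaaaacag

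Counting from the start, with -1 as the base just before it, the Nfkbia match spanned -29 to -20 and lay on the opposite strand. In Rel the match spanned -92 to -82, where overlapping matches lay on both strands. Tnfaip3 had a match at -125 to -116 and another on the opposite strand at -12 to -3, and Nfkbie had its match at -106 to -97. The first window of Nfkb2 held GGGAATTCCCC (chr19:46304698-46304708) at -39 to -29 and GGGGCTTTCC (chr19:46304726-46304735) at -11 to -2. Its other windows overlap each other and share a match. For Nfkbid both matches belonged to the window of the second of its 3 starts.

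**Figure D1:**
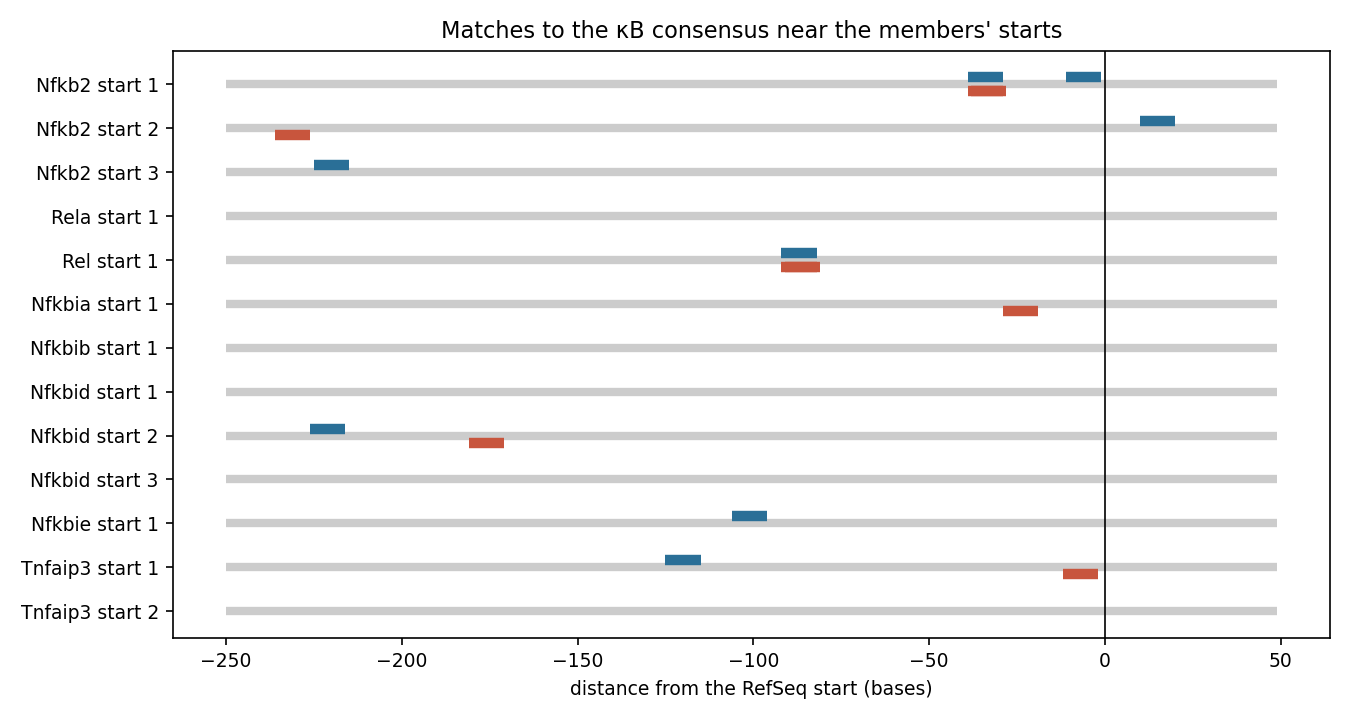
Matches to the κB consensus (10 bases each) in the RefSeq windows of 8 members, by distance from the start in bases (0 marks the start). Blue marks lie on the gene's strand and red marks on the other strand; 8 of the 13 windows hold a match, and those of Rela and Nfkbib hold none.

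Levels are in TPM, transcripts of a gene per 1000000 transcripts of its library, which allows levels of different genes to be compared. All 10 members passed the filter on low values, a group mean of 1 TPM or more in some group. Reads worked back from the table numbered 14754470 to 17384330 per library. Nfkb1 had 6371 to 9011 of them, whereas Nfkbid had only 74 to 135, so that counting alone gives an error of 11.6% in the library with the fewest. For the other 8 members the smallest number was 158, for Nfkbie.

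By the SD as a percent of the mean, the OVA libraries varied most for every member but Nfkb1 (6.48% with OVA, 6.59% in control). Replicate 3 was the highest of the 3 OVA libraries for 10 of 10 members, and replicate 2 was the lowest for 8 of 10. Granzyme transcripts took 8.38%, 9.54% and 7.66% of the total in OVA replicates 1 to 3, and the summed level of 10 natural killer markers was 10042, 14889 and 8125 TPM. Summed T cell markers (10 genes, Thy1 the most abundant) were 9036 to 9498 TPM in control and 4344 to 5620 TPM with OVA. With OVA plus citraconate they were 7984 to 8462 TPM. Thy1 itself averaged 2662, 2736 and 2640 TPM in control, OVA and OVA plus citraconate. Of the 10 genes, 9 were called lower with OVA and 1 did not pass. Natural killer markers (10 genes, Gzma the most abundant) summed to 1309 to 2109, 8125 to 14889 and 2178 to 4275 TPM in the same order. Most of that sum was Gzma, which averaged 1673, 9087 and 2412 TPM and also counts in the granzyme share. With citraconate over OVA, 8 of these 10 genes were called lower and 2 higher. B cell markers (10 genes, Cd79b the most abundant) summed to 16.5 to 18.5 TPM in control and at most 2.96 TPM in the other libraries. Ebf1, of that list, went the other way, averaging 0.142, 1.10 and 1.45 TPM in control, OVA and OVA plus citraconate. Of the 4 tested B cell markers, 1 was called higher and 3 lower in each comparison against control. Myeloid and dendritic markers (14 genes, Batf3 the most abundant by the mean of all libraries) summed to 51.02 to 68.6, 104.7 to 124 and 55.9 to 86.1 TPM. The Fc receptor gene Fcgr3 alone averaged 0.338, 58.8 and 8.54 TPM, whereas Batf3 averaged 42.9, 29.6 and 31.1 TPM, and Clec9a and Siglech were at 0 in all 9 libraries. CD4 and regulatory T cell markers (5 genes, Zbtb7b the most abundant) summed to 61.8 to 70.1, 21.8 to 23.9 and 26.7 to 28.3 TPM. Of these, Cd4 averaged only 2.62, 1.27 and 1.02 TPM, and Foxp3 at most 0.114 TPM in any group. Zbtb7b averaged 28.2, 17.9 and 16.2 TPM, Cd40lg 25.6, 1.31 and 1.87 TPM, and Ikzf4 8.56, 2.62 and 8.38 TPM. Stromal and epithelial markers (10 genes, Pecam1 the most abundant) summed to 44.4 to 48.0, 264 to 388 and 64.9 to 84.6 TPM, with Krt8 and Acta2 at 0 throughout. Pecam1 alone averaged 40.6, 276 and 55.5 TPM and Epcam 2.14, 32.4 and 15.2 TPM, whereas Krt18 averaged 3.13, 0.174 and 0.508 TPM. Col1a1, Col1a2, Pdgfra, Cdh5 and Dcn averaged at most 0.511 TPM in any group. Apart from the most abundant of each list, the B cell, CD4 and stromal genes named here were picked after their values were seen. The part of these shifts in the results was not tested. In bulk RNA, fewer cells of a type and less RNA per cell cannot be told apart.

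With OVA, the subunit genes Nfkb2, Relb and Rel and the inhibitor gene Nfkbib rose, and the subunit gene Nfkb1 and the inhibitor genes Nfkbia and Nfkbid fell. In all, 7 of 10 members were called, where 71.9% of tested genes were. By direction, 4 members were called higher, where 32.1% of 11971 tested genes were, and 3 were called lower, where 39.8% were. Scaled by the median of ratios, or with granzymes left out, 5 members were higher and 2 lower, as Rela gained a call and Nfkbid lost its own. Over all genes, 4410 were then higher and 4284 lower by the first of these, and 4539 and 4129 by the second. A gene was called at a Benjamini-Hochberg adjusted p under 0.05 from limma. The groups did not overlap for 6 of 10 members, against 75% of all genes. The median change of the members was a log2 of -0.06, and that of all genes -0.08.

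When citraconate was added to OVA, 8 of 10 members rose, all 5 subunit genes and the inhibitor genes Nfkbia, Nfkbie and Tnfaip3, and 0 fell. Of all genes 59% were called, 37.8% higher and 21.2% lower. The 8 members also had groups that did not overlap, against 66.1% of all genes. The median log2 change of all genes was 0.12 here, and scaling by the median of ratios moved the share of increases among called genes from 64.0% to 49.1%. For this reason changes with citraconate over OVA are stated after subtracting that median (called relative), with adjusted p-values of the unshifted change. On that relative scale the members' median was 0.41. Scaled by the median of ratios, 7 of 10 members were called higher, Rela being lost.

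Against control, OVA plus citraconate gave 8 of 10 members higher and 0 lower, beside 33.1% and 26.3% of all genes (59.4% called in either direction). The groups did not overlap for 9 of 10 members, against 67.4% of all genes. The 3 comparisons share libraries, so they are not independent of each other. In 8 of 10 members every citraconate library lay above all 6 others, which held for 16% of tested genes. Called higher than both OVA and control were 7 of 10 members, against 12.6% of tested genes. The members with a κB match that were called higher with citraconate than with OVA were Nfkb2, Rel, Nfkbia, Nfkbie and Tnfaip3, and Nfkbid was the member with a match that was not. Of the members without a match, Rela was called and Nfkbib was not. These 8 genes were not tested as a set. Calls among the other genes with a match were not counted, so matches cannot be related to calls here.

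**Figure D2:**
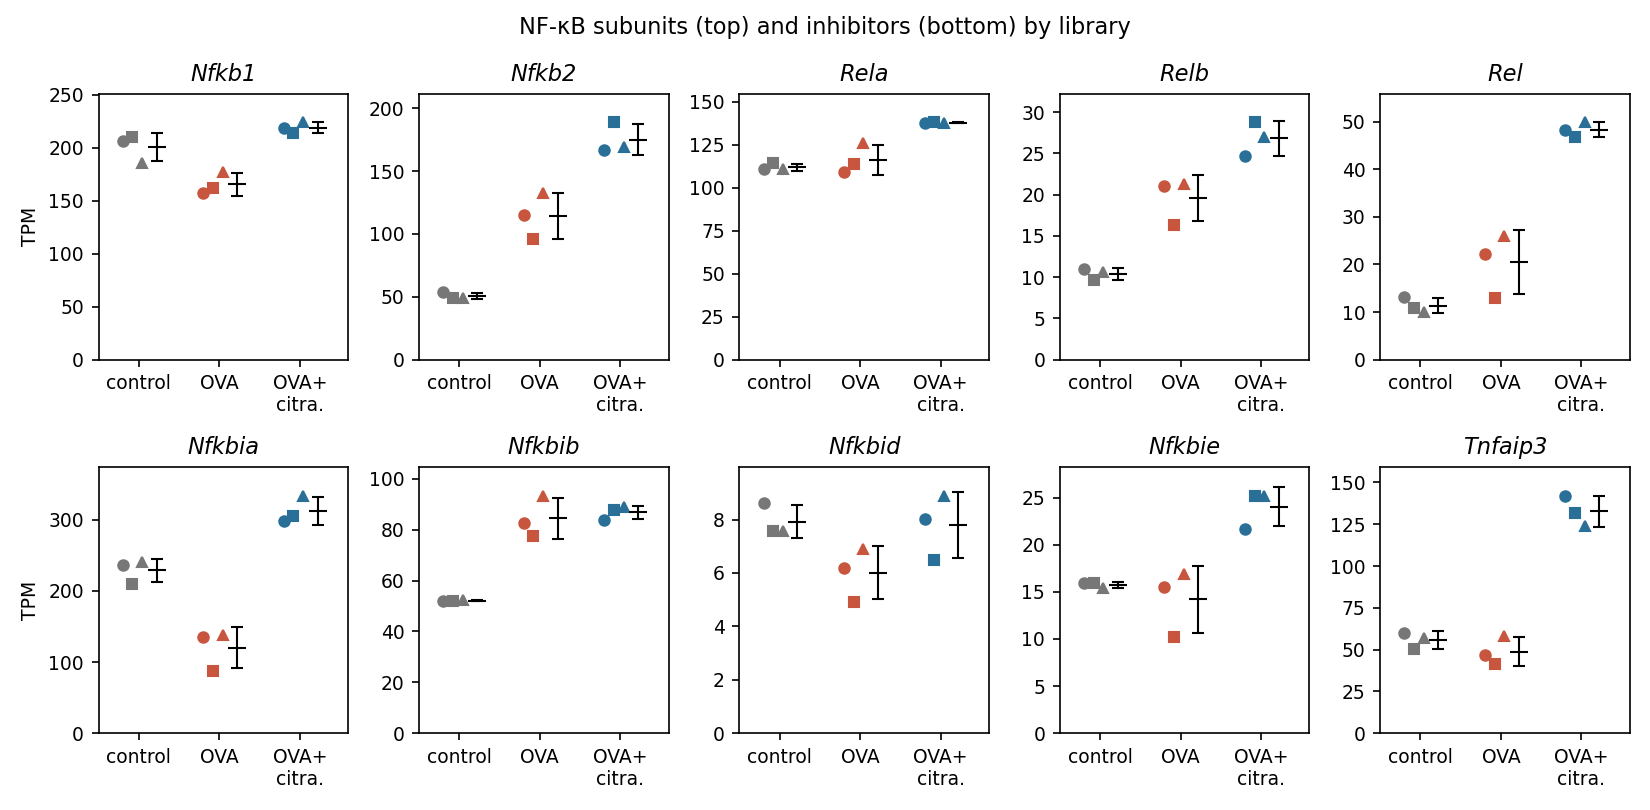
TPM of each member in 9 libraries by group, subunits above and inhibitors below; circles, squares and triangles are replicates 1, 2 and 3, and the bar with whiskers is the mean ± SD (n = 3). The citraconate libraries lie above all others in 8 panels, Nfkbib and Nfkbid being the exceptions.

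Nfkb1 encodes a precursor that is cut down to a DNA-binding subunit without an activation domain of its own. Its transcript stood at 206, 210.1 and 185 TPM in the control libraries, 157, 162 and 177 TPM with OVA, and 219, 214 and 224 TPM with OVA plus citraconate. The OVA libraries lay below both other groups, and the citraconate libraries just above control. The fall with OVA was an unshifted log2 change of -0.28 (SE 0.062, limma adjusted p = 0.00248). The rise with citraconate over OVA was 0.40 unshifted and a relative 0.28 (limma adjusted p = 3.6e-04). Citraconate against control did not pass (log2 0.13, 95% interval -0.01 to 0.27, adjusted p = 0.101), though it did without granzyme genes (0.0309), with quantile normalization (0.0458) and on reads with voom (0.0339).

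Rela, the activating subunit of the commonest canonical dimer, was the steadiest subunit gene. It measured 111, 114 and 111 TPM in control, 109, 114 and 126 TPM with OVA, and 138, 138 and 137 TPM with OVA plus citraconate. Control and OVA overlapped, and the change between them did not pass (log2 0.05, 95% interval -0.07 to 0.18, limma adjusted p = 0.411). It passed as a rise when libraries were scaled by the median of ratios (0.0218) or granzymes left out (0.0172). Above OVA, citraconate gave a relative log2 change of 0.12 (0.25 unshifted, SE 0.056, limma adjusted p = 0.00356), which was not called under scaling by the median of ratios (0.0711). Against control the log2 change was 0.30 (adjusted p = 0.00109).

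Rel encodes c-REL, the lymphocyte-restricted subunit needed for T cell activation. Its levels were 13.1, 10.8 and 10.03 TPM in control, 22.3, 13.0 and 26.0 TPM with OVA, and 48.3, 46.7 and 49.9 TPM with OVA plus citraconate. OVA replicate 2 fell within the control range, and the citraconate libraries stood well clear of all others. The rise with OVA was a log2 change of 0.76 (SE 0.20, limma adjusted p = 0.00637), or 1.04 without OVA replicate 2. With citraconate Rel rose further, by a relative log2 change of 1.13 (1.25 unshifted, limma adjusted p = 4.58e-04) over OVA. Mean levels were 11.3 ± 1.58, 20.5 ± 6.69 and 48.3 ± 1.60 TPM (SD, n = 3), so that citraconate cells held 4.27 times the control level.

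Nfkb2, whose precursor serves the non-canonical arm, rose at each step. It stood at 53.7, 49.2 and 49.2 TPM in control, 115, 96.1 and 133 TPM with OVA, and 167, 189 and 169 TPM with OVA plus citraconate. No library of one group reached the range of another. The log2 change was 1.15 with OVA (SE 0.10, limma adjusted p = 4.16e-06). With citraconate over OVA it was a relative 0.49 (0.62 unshifted, limma adjusted p = 5.73e-04). Against control, OVA plus citraconate was 3.45 times higher (log2 1.77, adjusted p = 4.81e-07).

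Relb, the partner of processed Nfkb2 product, followed the same order at lower levels. It measured 10.99, 9.62 and 10.6 TPM in control, 21.1, 16.4 and 21.3 TPM with OVA, and 24.7, 28.8 and 26.9 TPM with OVA plus citraconate. The 3 groups did not overlap. The log2 change with OVA was 0.84 (SE 0.11, limma adjusted p = 5.14e-05). The relative change with citraconate over OVA was 0.32 (0.44 unshifted, limma adjusted p = 0.00546). Against control the log2 change was 1.28 (adjusted p = 5.26e-06). Relb is also abundant in dendritic and B cells. Of the 7 tested myeloid and dendritic markers, 2 were called higher, 3 lower and 2 neither with citraconate over OVA. The dendritic factor gene Zbtb46 averaged 0.0362 TPM in control, 1.05 TPM with OVA and 1.79 TPM with citraconate. Itgax, of the same list, averaged 6.96, 5.71 and 4.01 TPM in that order. Both genes were named after their values were seen. The part of such cells in the Relb values was not tested.

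Among the inhibitors, Nfkbia encodes IκBα, which binds canonical dimers and is rebuilt after each pulse of signalling. It had the highest TPM of the 10 genes in control and with citraconate. Its levels were 236, 210.2 and 240.3 TPM in control, 135, 86.7 and 138 TPM with OVA, and 298, 305 and 334 TPM with OVA plus citraconate. The OVA libraries lay below every other library and the citraconate libraries above. Nfkbia fell with OVA by 0.95 on the log2 scale (SE 0.15, limma adjusted p = 2.31e-04), or by 0.74 without OVA replicate 2. It rose with citraconate over OVA by a relative 1.28 (1.40 unshifted, limma adjusted p = 4.74e-05). Against control it was 1.36 times higher (log2 0.45, adjusted p = 0.0263), a call lost in 5 of 19 alternatives, among them leaving out control replicate 1 (0.0512) or 2 (0.0885) or citraconate replicate 2 (0.0509) or 3 (0.0840), and applying no filter on low values (0.0566).

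Tnfaip3 encodes A20, a ubiquitin-editing enzyme that shuts down the signals upstream of the IκB kinase. Its transcript measured 60.2, 50.1 and 57.0 TPM in control, 46.9, 41.3 and 58.1 TPM with OVA, and 142, 132 and 124 TPM with OVA plus citraconate. Control and OVA overlapped, and the citraconate libraries stood well above all others. The change with OVA did not pass (log2 -0.20, 95% interval -0.46 to 0.06, limma adjusted p = 0.143), except as a fall without OVA replicate 3 (-0.33, adjusted p = 0.00979). With citraconate over OVA Tnfaip3 rose by a relative log2 change of 1.31 (1.44 unshifted, SE 0.12, limma adjusted p = 1.12e-05). Against control it rose by an unshifted 1.24 (limma adjusted p = 1.07e-05).

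Nfkbie encodes IκBε, a slower relative of IκBα. It stood at 16.0, 15.9 and 15.4 TPM in control, 15.6, 10.2 and 16.9 TPM with OVA, and 21.7, 25.2 and 25.2 TPM with OVA plus citraconate. OVA replicate 2 was low and the other OVA libraries were at the control level. The change with OVA did not pass (log2 -0.17, 95% interval -0.51 to 0.17, limma adjusted p = 0.338) and was 0.04 without OVA replicate 2. With citraconate Nfkbie rose over OVA by a relative 0.62 (0.74 unshifted, SE 0.15, limma adjusted p = 0.00197). Over control it rose by an unshifted 0.58 (limma adjusted p = 0.00803).

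Nfkbib encodes IκBβ, the IκB whose gene is known for little induction by NF-κB itself. It measured 52.0, 51.8 and 52.4 TPM in control, 82.5, 77.5 and 93.4 TPM with OVA, and 83.8, 87.8 and 88.8 TPM with OVA plus citraconate. Both stimulated groups lay above control and overlapped each other. The log2 change with OVA was 0.68 (SE 0.067, limma adjusted p = 7.55e-06), and that of citraconate against control was 0.73 (adjusted p = 9.67e-06). Citraconate against OVA did not pass (unshifted log2 0.04, 95% interval -0.11 to 0.19, adjusted p = 0.597), and its sign turned under scaling by the median of ratios (-0.09), without granzymes (-0.03) and without OVA replicate 2 (-0.02).

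Nfkbid encodes IκBNS, a nuclear IκB protein that modifies transcription at selected genes. It was the lowest of the 10, at 8.62, 7.58 and 7.57 TPM in control, 6.20, 4.92 and 6.90 TPM with OVA, and 8.02, 6.47 and 8.90 TPM with OVA plus citraconate. The OVA libraries lay below control, and the citraconate libraries overlapped both. The fall with OVA (log2 -0.36, SE 0.14, limma adjusted p = 0.0372) was lost in 10 of 19 alternatives, including leaving out any 1 control library (0.0582 to 0.116), OVA replicate 1 (0.0610) or OVA replicate 2 (0.130). Citraconate against OVA did not pass (unshifted log2 0.33, 95% interval 0.02 to 0.63, adjusted p = 0.0609) but did without OVA replicate 3 (0.0312) or citraconate replicate 2 (0.0201). Citraconate against control did not pass either (log2 -0.03, 95% interval -0.33 to 0.28, adjusted p = 0.868).

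**Figure D3:**
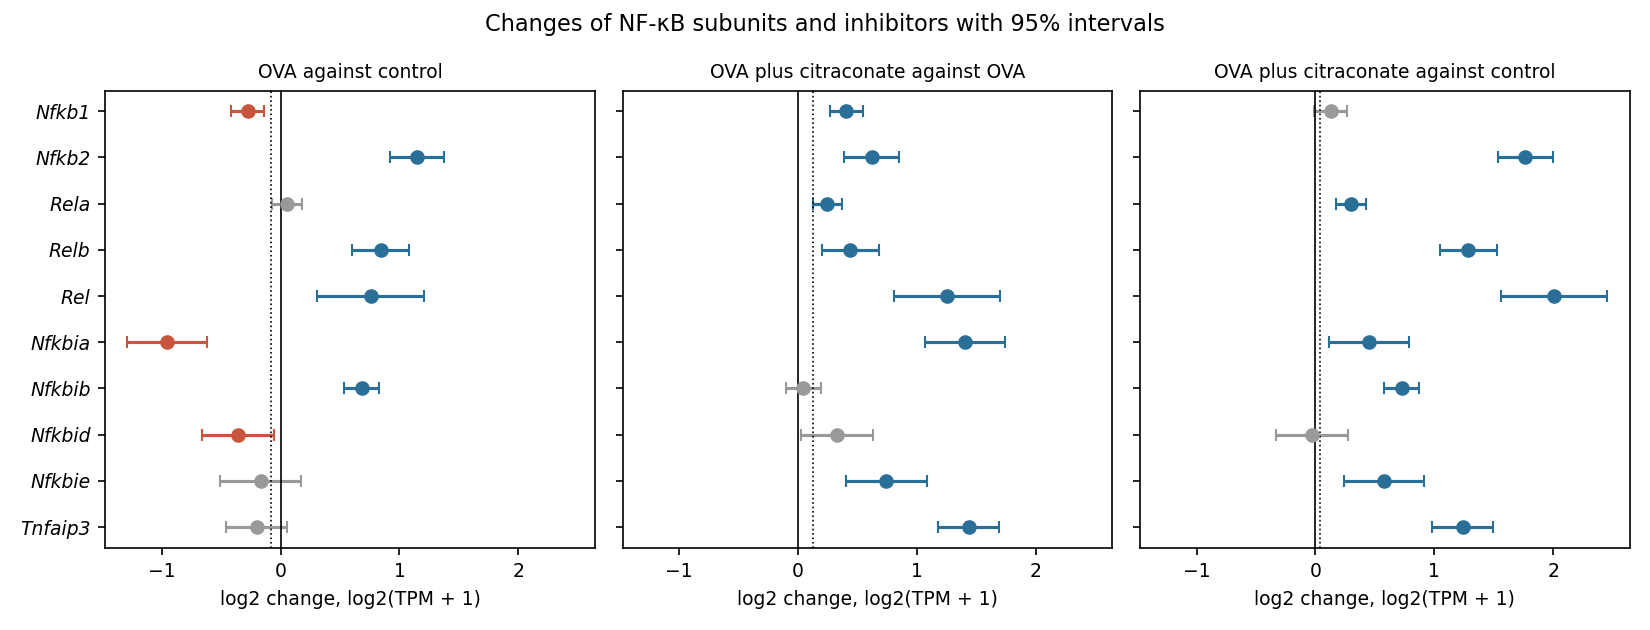
Log2 change (unshifted) of each member on log2(TPM + 1) in the 3 comparisons, with 95% intervals from limma; blue marks calls higher, red calls lower and grey no call, the dotted line is the median of all tested genes and the axis is shared. The 3 members called lower with OVA are Nfkb1, Nfkbia and Nfkbid, and none is called lower in the other comparisons.

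Set against each other, the members' transcripts shifted in their proportions. The 5 subunit genes summed to 385 ± 16.4 TPM in control, 436 ± 42.5 TPM with OVA and 607 ± 10.2 TPM with OVA plus citraconate (SD, n = 3). The 5 inhibitor genes summed to 360.4 ± 21.5, 273 ± 47.6 and 564 ± 15.2 TPM in the same order. The subunit sums of control (366 to 395 TPM) lay below those with OVA (401 to 483 TPM), whereas the inhibitor sums with OVA (221 to 313 TPM) lay below those of control (336 to 373 TPM). The ratio of inhibitor to subunit transcripts was therefore 0.852 to 1.02 in control, 0.550 to 0.675 with OVA and 0.902 to 0.956 with OVA plus citraconate. OVA was apart from both other groups, and control and citraconate overlapped. This ratio is within a library, so scaling does not move it. The inhibitor genes did not move together with OVA: mean Nfkbia went from 229 to 120 TPM and mean Nfkbib from 52.1 to 84.5 TPM. The sums describe transcripts and carry no test.

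Within the subunits, Nfkb1 made up 52.1 ± 1.33% of the subunit sum in control, 38.0 ± 2.02% with OVA and 36.1 ± 1.21% with citraconate. Nfkb2 took 13.2 ± 0.606%, 26.1 ± 1.89% and 28.8 ± 1.58%. The precursor genes Nfkb1 and Nfkb2 together kept a nearly even share, 65.2 ± 0.982%, 64.2 ± 0.136% and 64.9 ± 0.375%. Rel went from 2.93 ± 0.331% in control to 4.63 ± 1.196% with OVA and 7.96 ± 0.338% with citraconate, while Rela went from 29.1 ± 1.08% to 26.7 ± 1.43% and 22.7 ± 0.370%. Rela transcripts outnumbered those of Rel by 8.48 to 11.03 times in control libraries, 4.84 to 8.72 times with OVA and 2.75 to 2.96 times with citraconate. Of the classical IκB transcripts (Nfkbia, Nfkbib and Nfkbie), Nfkbia made up 77.1 ± 1.28% in control, 54.4 ± 4.26% with OVA and 73.8 ± 0.789% with citraconate. Nfkbib made up 17.6 ± 0.922%, 39.1 ± 4.74% and 20.5 ± 0.627%. The ratio of Nfkbia to Rela was 1.84 to 2.17 in control, 0.762 to 1.24 with OVA and 2.16 to 2.43 with citraconate.

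**Figure D4:**
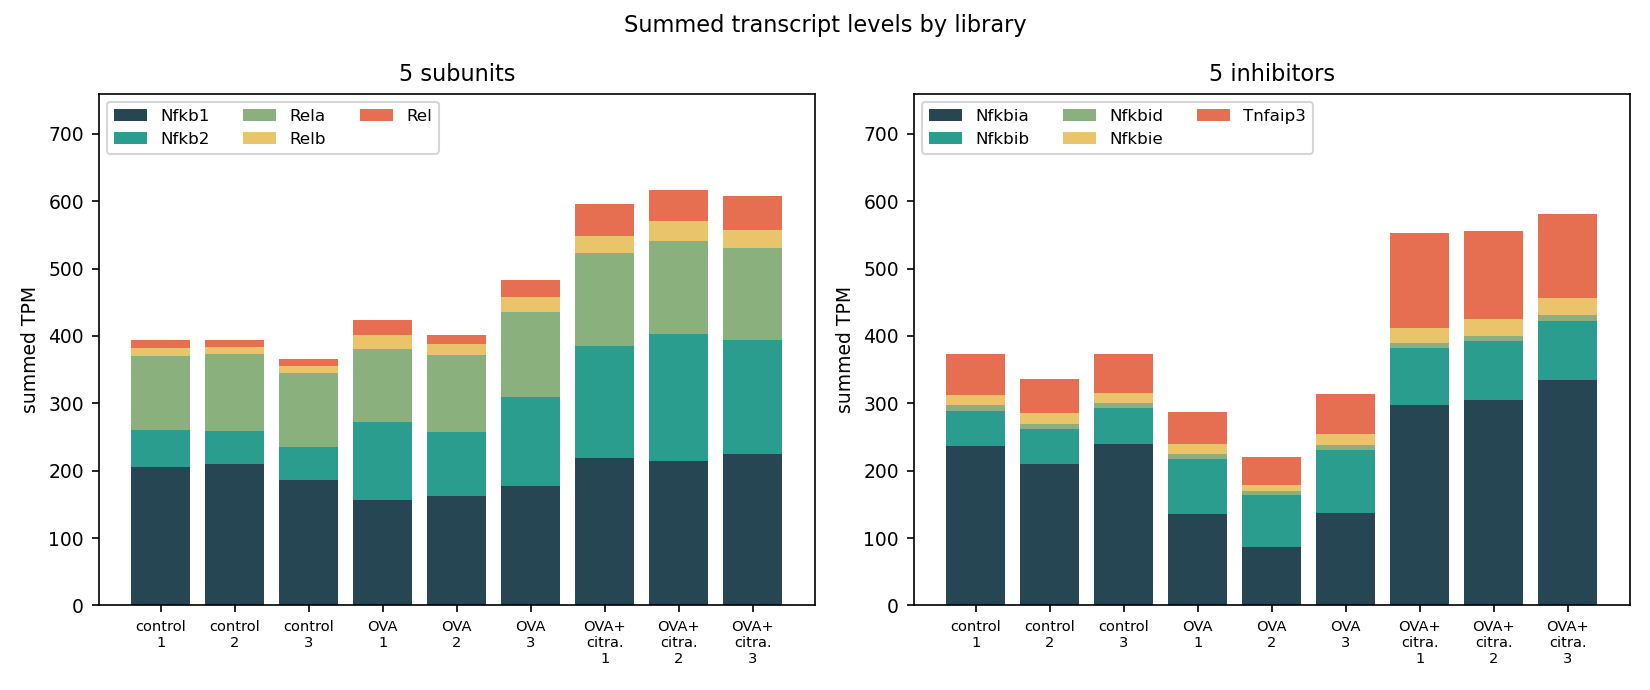
Summed TPM of the 5 subunit genes (left) and the 5 inhibitor genes (right) in each library, stacked by gene; the axes start at 0. Subunit sums run from 366 to 395 in control and 596 to 617 with OVA plus citraconate, and inhibitor sums are lowest with OVA (221 to 313).

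The rest of the pathway was read in 5 lists, whose counts stand beside 71.9% of all tested genes called with OVA (32.1% higher, 39.8% lower) and 59% with citraconate over OVA (37.8% higher, 21.2% lower). Of 15 genes of the canonical route (receptor-proximal adaptors, ubiquitin ligases and the IκB kinase), 1 rose with OVA, 11 fell and 3 did not pass (Bcl10, Map3k7 and Tab1). The median log2 change of the list was -0.34, beside -0.08 for all genes. Prkcq, the protein kinase C that links the T cell receptor to this route, fell from 104 ± 3.59 to 31.7 ± 3.11 TPM (SD, n = 3). Tab2, an adaptor of the kinase TAK1, fell from 95.5 ± 4.72 to 47.1 ± 1.83 TPM and Traf6, a ubiquitin ligase, from 35.2 ± 1.31 to 20.3 ± 0.998 TPM. The gene that rose was Chuk, an IκB kinase subunit, named after its value was seen (19.0 to 32.1 TPM). When citraconate was added, 9 of the 15 rose, 1 fell (Tab1, named after its value was seen) and 5 did not pass. The relative median was 0.17. Malt1, a protease of antigen receptor signalling, went from 54.3 ± 6.001 to 82.7 ± 2.53 TPM, beside 85.5 ± 4.43 TPM in control. Map3k7, which encodes TAK1, went from 30.1 ± 1.505 to 41.0 ± 1.33 TPM, and Traf6 from 20.3 ± 0.998 to 28.2 ± 0.505 TPM.

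The non-canonical list holds 5 genes, of which 2 rose with OVA, 1 fell and 2 did not pass (Map3k14 and Traf3). The median log2 change was 0.03. Birc2, a ubiquitin ligase that keeps the non-canonical kinase low, fell from 25.5 ± 1.75 to 19.4 ± 1.76 TPM with OVA and rose to 37.4 ± 2.62 TPM with citraconate. Map3k14, which encodes that kinase (NIK), did not pass with OVA (8.42 ± 1.21 and 7.04 ± 0.593 TPM) and fell to 4.72 ± 0.417 TPM with citraconate. Traf2 rose from 12.4 ± 0.834 to 16.4 ± 1.71 TPM with OVA and fell to 13.6 ± 1.01 TPM with citraconate. Birc3 rose from 13.6 ± 0.853 to 16.99 ± 2.32 TPM with OVA and did not pass between OVA and citraconate (18.7 ± 1.29 TPM). With citraconate over OVA, 1 of the 5 thus rose, 2 fell and 2 did not pass, and the relative median was -0.34.

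The next list holds 16 other regulators of NF-κB (A20 partners, deubiquitinases and further IκB-like proteins), plotted as other brakes. Of these, 7 rose with OVA, 3 fell (Cyld, Nfkbiz and Zc3h12a) and 6 did not pass. The share called, 62.5%, was below that of all genes, and the median log2 change was 0.12. Tnip1, which helps A20 bind ubiquitin chains, rose from 93.8 ± 6.19 to 198 ± 15.7 TPM and did not pass between OVA and citraconate (187 ± 13.6 TPM). Tax1bp1 rose from 93.9 ± 6.48 to 157 ± 6.12 TPM and fell to 114 ± 6.48 TPM with citraconate, and Rnf11 rose from 11.6 ± 0.961 to 23.7 ± 2.03 TPM. With citraconate over OVA, 6 of the 16 rose, 4 fell (Tax1bp1, Itch, Rnf11 and Pdlim2) and 6 did not pass. The relative median was -0.03. Nfkbiz, a nuclear IκB protein, went from 5.41 ± 0.486 to 16.0 ± 0.646 TPM, above the 6.50 ± 0.323 TPM of control. Zc3h12a, an RNase that degrades inflammatory transcripts, rose from 12.1 ± 0.832 to 18.8 ± 0.636 TPM, and Pdlim2, which directs RELA to degradation, fell from 41.6 ± 0.188 to 26.9 ± 0.546 TPM.

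Among 13 tested genes of 16 receptors and adaptors that feed NF-κB, 2 rose with OVA (Tnfrsf1b and Ripk1), 8 fell and 3 did not pass (Tradd, Cd28 and Irak4). The share called was 76.9%, near that of all genes, and the median log2 change was -0.70. With citraconate over OVA, 8 rose, 4 fell (Tradd, Ripk1, Myd88 and Irak4) and Tnfrsf1b did not pass, with a relative median of 0.46. These genes, and those in brackets for the other lists, were named after their values were seen. Tnfrsf18, the costimulatory receptor GITR, fell from 280.2 ± 7.03 to 109.5 ± 29.3 TPM with OVA and was 300.4 ± 11.1 TPM with citraconate. Cd28 did not pass with OVA (55.1 ± 4.04 and 55.2 ± 10.3 TPM) and rose to 107 ± 4.51 TPM with citraconate. Irak1, a kinase of interleukin receptor signalling, fell from 73.5 ± 1.35 to 42.6 ± 4.33 TPM with OVA and rose to 64.4 ± 5.31 TPM with citraconate. Tlr2 was low, at 3.20 ± 0.101, 0.568 ± 0.0570 and 1.39 ± 0.191 TPM.

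Of 29 known NF-κB target genes, 12 rose with OVA, 9 fell and 8 did not pass. The share called, 72.4%, was close to that of all genes (71.9%) and says nothing particular about targets. Their median log2 change was 0.25. The chemokine gene Ccl3 rose from 41.4 ± 4.12 to 1368 ± 397 TPM and the receptor gene Tnfrsf9 from 308 ± 24.3 to 1438 ± 154 TPM, whereas Myc fell from 652 ± 6.45 to 152 ± 29.8 TPM. With citraconate over OVA, 19 of the 29 rose, 2 fell (Cflar and Icam1, named after their values were seen) and 8 did not pass. The relative median was 0.58. Myc rose to 548 ± 12.2 TPM, Junb from 418 ± 36.2 to 900.3 ± 37.7 TPM, and Ier2 from 151 ± 4.78 to 257 ± 10.3 TPM. Bcl3 and Birc3 are counted both here and in a list above. Many of the target genes also answer to other factors, so the list does not isolate NF-κB.

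**Figure D5:**
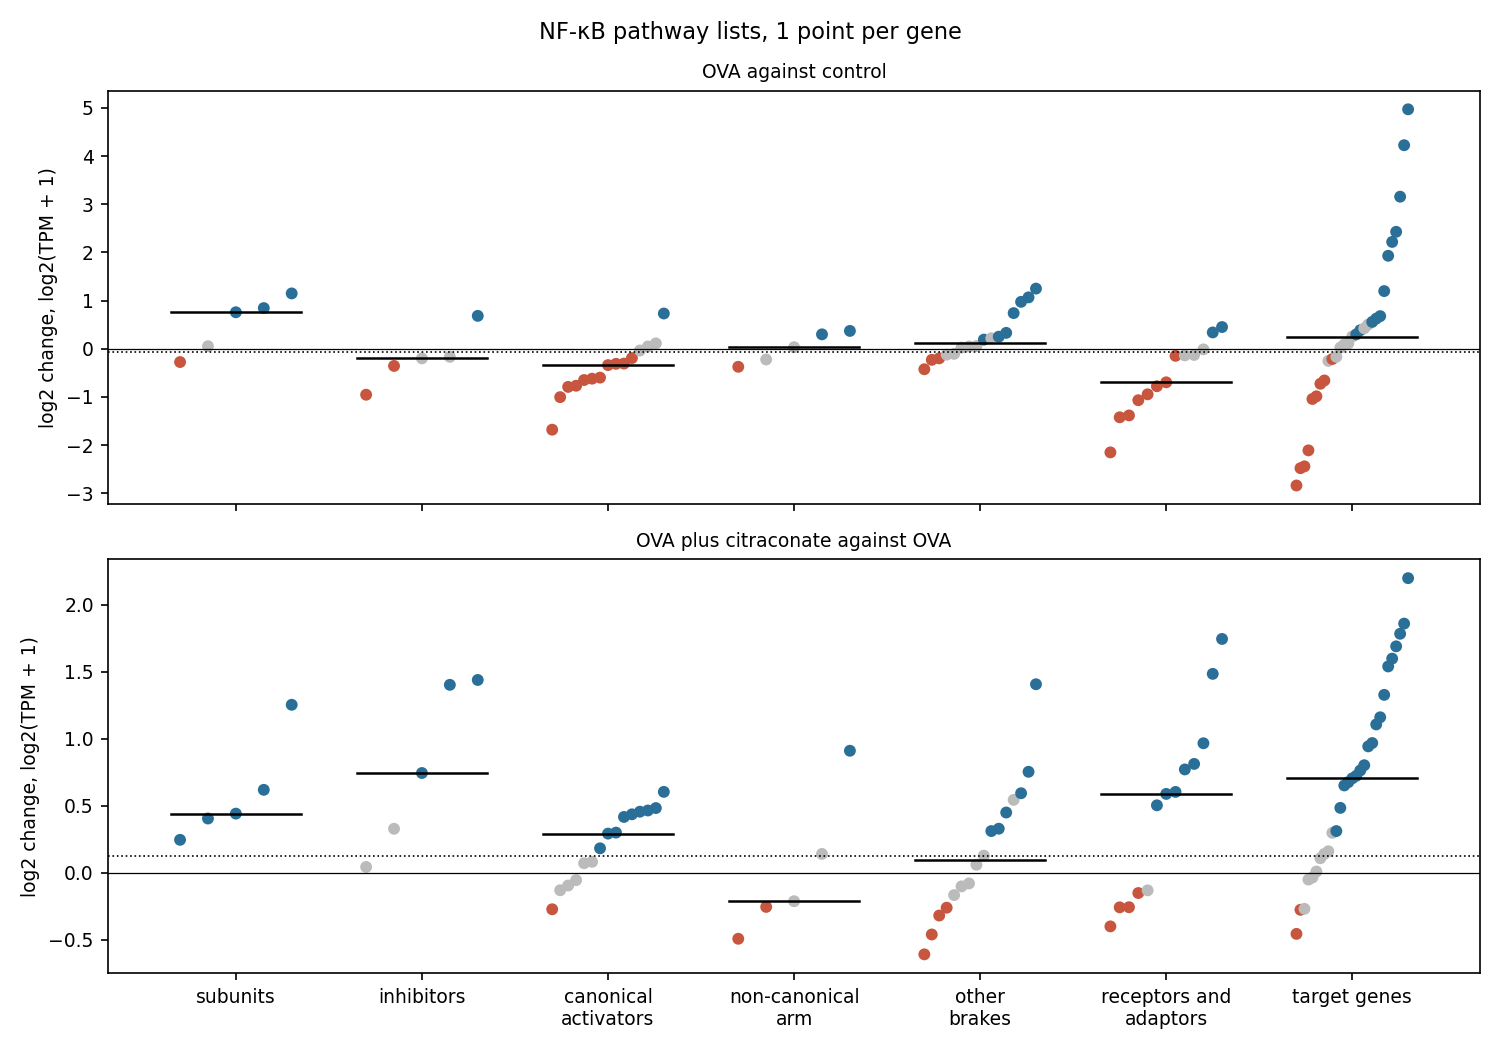
Log2 change (unshifted) on log2(TPM + 1) of each gene of the members and the pathway lists, for OVA against control (top) and OVA plus citraconate against OVA (bottom; the vertical axes differ); blue marks calls higher, red calls lower and grey no call, the short bar is the list's median and the dotted line the median of all tested genes. In the lower plot 19 of 29 target genes and 8 of the 10 members are called higher.

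The genes whose log2(TPM + 1) ran closest to a member over the 9 libraries are given as a description, since the libraries fall into 3 groups and share their depth and totals. Among 8605 named genes averaging 5 TPM or more over the libraries, those nearest to Rel were Gucy1a3 (Pearson r = 0.998), Tspan6 (0.997) and Galnt3 (0.997). Nearest to Nfkbia were Stk38l (0.991), Sp140 (0.989) and Xpnpep1 (0.989), and nearest to Nfkb1 were Bag6 (0.992), Snx25 (0.986) and Exoc2 (0.983). Among the genes nearest to Nfkbid were Ung (0.982), a DNA repair enzyme gene, and Dtymk (0.965), which encodes an enzyme of nucleotide synthesis. Gucy1a3, a guanylate cyclase subunit gene, measured 1.34 ± 0.478 TPM in control, 7.98 ± 5.60 TPM with OVA and 42.5 ± 5.64 TPM with citraconate, so its range was wider than that of Rel.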

How the data were processed

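RNA of 9 libraries was sequenced. The authors deposited TPM, 1 column per library; each column sums to 1000000, although the file is named for FPKM. Trim Galore 0.5.0, Salmon and GRCm39 are named in the submitters' processing notes; the sources used here name no annotation. Values were changed to log2(TPM + 1), and 11971 genes whose mean reached 1 TPM in some group were fitted together with limma 3.58.1 (R 4.3.3, eBayes with a trend, two-sided, Benjamini-Hochberg over all tested genes of each comparison). The log2 scale with an added 1 understates changes of low genes.

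Reads per gene were worked back as the whole numbers that fit all libraries (16734 of 16734 genes above 0 in at least 2 libraries, within 0.001 reads or 3e-07 of the count) and were used for depth and in 1 of 19 alternatives. How reads of similar genes were divided is not known. Of the fits, only that of OVA against control was tested on simulated data. The working back of reads was not tested in this way. Nothing in the labels ties the replicates to different animals or cultures. The p-values reflect spread among these libraries that may be only technical. The members and lists were chosen with earlier results of these data known. Named were all 10 members, the 3 genes per pathway list with the smallest adjusted p in each of the first 2 comparisons, and the 3 nearest genes of 4 members, of which 1 is not reported here. Promoter sequences are from RefSeq, GRCm38.p6.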

Additional observations from a re-analysis of the deposited data

How the results depend on the processing

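For the 10 members in 3 comparisons, 537 of 570 refits kept direction and side of the threshold, 16 lost a call, 9 gained one and 8 changed sign. The sign changes, all of changes that were not called, were Nfkbib with citraconate against OVA (-0.091 scaled by the median of ratios, -0.029 without granzymes, -0.016 to 0.12 leaving out 1 library, lowest without OVA replicate 2) and Nfkbid with citraconate against control (0.0083 without granzymes, -0.12 to 0.085 leaving out 1 library, above 0 without control replicate 1 or citraconate replicate 2). The others were Nfkbie (-0.30 to 0.039 leaving out 1 library, above 0 without OVA replicate 2) and Rela (-0.0063 to 0.097, below 0 without OVA replicate 3) with OVA against control. The cause was not tested.

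Scaling by the median of ratios moved the sums with OVA plus citraconate to 580 TPM for subunits and 538 TPM for inhibitors. Leaving out 1 library, the members called ranged from 6 to 8 for OVA against control, 8 to 9 for citraconate against OVA and 7 to 8 for citraconate against control. Over all genes the calls then ranged from 8018 to 8629, 6211 to 6953 and 6332 to 7345.

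The labels do not say whether same-numbered libraries share more than a number. Deviations from the group means correlated at -0.01 to 0.30 between them and at -0.25 to 0.17 between differently numbered libraries. The highest value was that of OVA and citraconate replicates 2, and a shared origin was not tested. With the replicate number as a block, 8578, 7004 and 7128 genes and 7, 9 and 8 members were called; Nfkbid with citraconate against OVA was the added call (adjusted p = 0.0298). Depth limits Nfkbid most.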
